A study of Homo sapiens with 9 samples.

Results

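Integrins are the cell surface receptors that tie a cell to its surrounding matrix, and laminins are the large matrix proteins that many of them hold on to. The genes described here were chosen by name: every protein-coding gene whose GENCODE symbol is that of an integrin α subunit, an integrin β subunit or a laminin α, β or γ chain. The rule found 38 of the 60617 gene identifiers in the count data, 26 of them integrin subunits (18 α and 8 β) and 12 of them laminin chains (5 α, 4 β and 3 γ). The rule used names and no expression values, but it was chosen with earlier results of these data known.

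RNA-seq was performed on PC-3, an androgen-independent epithelial cell line from a prostate cancer metastasis, in 9 libraries of 3 conditions with 3 replicates each. Control cells received vehicle, another received 1 µM decitabine, and the last received 1 µM decitabine together with 200 µM S-adenosylmethionine (SAM), all sampled 5 days after treatment began. Decitabine is a cytosine analog that traps DNA methyltransferases and lowers DNA methylation, and SAM is the methyl donor that those enzymes use. All groups were the same line in the same growth medium, with no genetic change given, no group with SAM alone was analysed here, and the labels do not say whether replicates were separate cultures, so that every p-value below measures only the spread between these libraries, which may be technical.

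An integrin is a pair of one α and one β subunit, and the pair decides what is bound: α3, α6 and α7 with β1, and α6 with β4, bind laminins, α1, α2, α10 and α11 with β1 bind collagens, and α5, α8, αv and αIIb pairs bind the short RGD motif of fibronectin, vitronectin and related proteins. A laminin is a cross-shaped trimer of one α, one β and one γ chain, named by its chains, and it forms the sheet of the basement membrane on which epithelial cells rest. In prostate, basal cells hold on to laminin-332 through α6β4 in hemidesmosomes, and laminin-511 (α5, β1, γ1) is a chief laminin of the mature epithelial basement membrane.

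Decitabine lowers the methylation of CG dinucleotides. The bases just upstream of 4 members that moved in different directions are therefore shown, with every CG in capitals. They were picked after their expression values were seen, come from RefSeq on build GRCh38.p14, read 5′ to 3′ on the gene's own strand, and end at the base before the outermost annotated start. ITGA5 (chr12:54419267-54419516, minus strand), ITGB6 (chr2:160200314-160200522, minus strand) and LAMB3 (chr1:209652426-209652675, minus strand) rose in decitabine, and LAMA5 (chr20:62367313-62367562, minus strand) fell.
ITGA5: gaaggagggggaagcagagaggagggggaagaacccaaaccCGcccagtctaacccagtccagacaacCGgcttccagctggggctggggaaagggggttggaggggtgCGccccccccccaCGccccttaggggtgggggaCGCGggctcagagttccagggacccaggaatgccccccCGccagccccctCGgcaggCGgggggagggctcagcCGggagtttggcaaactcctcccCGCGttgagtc
ITGB6: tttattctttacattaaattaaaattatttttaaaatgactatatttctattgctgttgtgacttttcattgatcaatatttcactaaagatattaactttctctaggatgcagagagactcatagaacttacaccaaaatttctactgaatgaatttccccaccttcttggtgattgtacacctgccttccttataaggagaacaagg
LAMB3: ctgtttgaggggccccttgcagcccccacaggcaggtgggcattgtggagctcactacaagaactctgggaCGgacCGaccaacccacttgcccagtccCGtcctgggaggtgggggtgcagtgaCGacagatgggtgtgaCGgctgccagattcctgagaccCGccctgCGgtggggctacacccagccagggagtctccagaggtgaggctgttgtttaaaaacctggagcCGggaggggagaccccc
LAMA5: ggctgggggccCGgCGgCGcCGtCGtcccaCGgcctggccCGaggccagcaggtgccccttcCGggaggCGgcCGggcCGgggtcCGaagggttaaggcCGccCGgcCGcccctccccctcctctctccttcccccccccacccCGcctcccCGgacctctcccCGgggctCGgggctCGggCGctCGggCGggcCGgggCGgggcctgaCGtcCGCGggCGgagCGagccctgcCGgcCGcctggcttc
The stretch of LAMA5 holds 32 CG in 250 bases, against 12 in ITGA5, 8 in LAMB3 and 0 in the 209 bases of ITGB6. RefSeq start windows of 300 bases (250 upstream and 50 downstream) were at hand for 26 of the 38 members. The median over all 35116 windows was 14 CG. Among members with a window, the 15 that were higher in decitabine held from 0 to 41 CG with a median of 13 (12.5 without LAMA3, whose window lies 183567 bases from its GENCODE start), and the 5 that were lower held from 2 to 41 with a median of 28. The ranges overlapped: LAMC1, which was higher, and LAMA5, which was lower, each had 41. Of all windows, 6.69% held at least as many CG as that of LAMA5. The shares with at least as many as the windows of ITGA5 and LAMB3 were 47.5% and 56.4%. These counts describe letters near annotated starts, and the methylation of these sites was not analysed here.

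Values are estimated gene counts given as CPM, counts scaled to a fixed library total, after TMM scaling, a correction for library size and composition. Totals ran from 21934307 to 22489684 counts per library. TMM factors were 0.895 to 0.902 in the controls, 1.06 to 1.08 in decitabine and 1.03 to 1.07 in the combination. The median change of all genes was 0.03 (log2) for decitabine against control, 0.05 for the combination against control and 0.00 between the treatments, and with library size as the only scaling it was 0.28, 0.27 and −0.02, so small changes against control depend on the scaling. In bulk RNA, fewer cells with a transcript and less transcript per cell cannot be told apart.

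Expression of 31 of the 38 members was high enough to test, 19 integrin subunits and all 12 laminin chains. Of these, 25 exceeded the low-count cutoff in all 9 libraries, and ITGA2B was under it in 2 decitabine libraries. ITGA4, ITGB6, LAMA1 and LAMB4 were under it in every control library and ITGB7 in 1, so they could enter the test only through the treated libraries. The other 7 integrin subunits had at most 7 counts in any library: ITGA8, an RGD-binding subunit, ITGA9, which binds tenascin, ITGA11, which binds collagen, and ITGAD, ITGAL, ITGAM and ITGAX, the α partners of the leukocyte subunit β2. ITGAD had a single count in all libraries together.

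With decitabine, 20 of the 31 tested members rose and 5 fell (edgeR quasi-likelihood test, adjusted p under 0.05 over all 18532 genes tested). Over all genes tested, 36.3% rose and 32.5% fell, and the members' median log2 change was 0.68. With the combination, 16 members rose and 5 fell, where 35.9% of all genes rose and 31.3% fell, and the median was 0.60. Combination and decitabine were compared directly as well: 2 members, ITGB5 and ITGAE, were higher in the combination and 9 were lower, where 7.67% of all genes were higher and 8.02% lower, with a median of −0.19. The 9 were ITGA1, ITGA3, ITGB2, ITGB3, ITGB4, LAMA3, LAMA5, LAMB1 and LAMB2. Among the 26 members over the low-count cutoff in every control library, 15 rose and 5 fell with decitabine, 13 rose and 5 fell with the combination, and 2 were higher and 9 lower between the treatments, with medians of 0.42, 0.32 and −0.17. Requiring also a log2 change over 1 left 15 members higher and 2 lower with decitabine (22.7% and 6.15% of all genes), 10 higher and 2 lower with the combination (21.4% and 6.56%), and 0 higher and 1 lower between the treatments (0.399% and 1.74%). The 15 include ITGA4, ITGB6, ITGB7, LAMA1 and LAMB4, and the 10 include ITGA4, ITGB6 and ITGB7. These members could enter the test only through the treated libraries, and the count over 1 was not repeated without them. Both treatments were set against the same 3 control libraries, so the first 2 comparisons are not independent of each other.

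**Figure D1:**
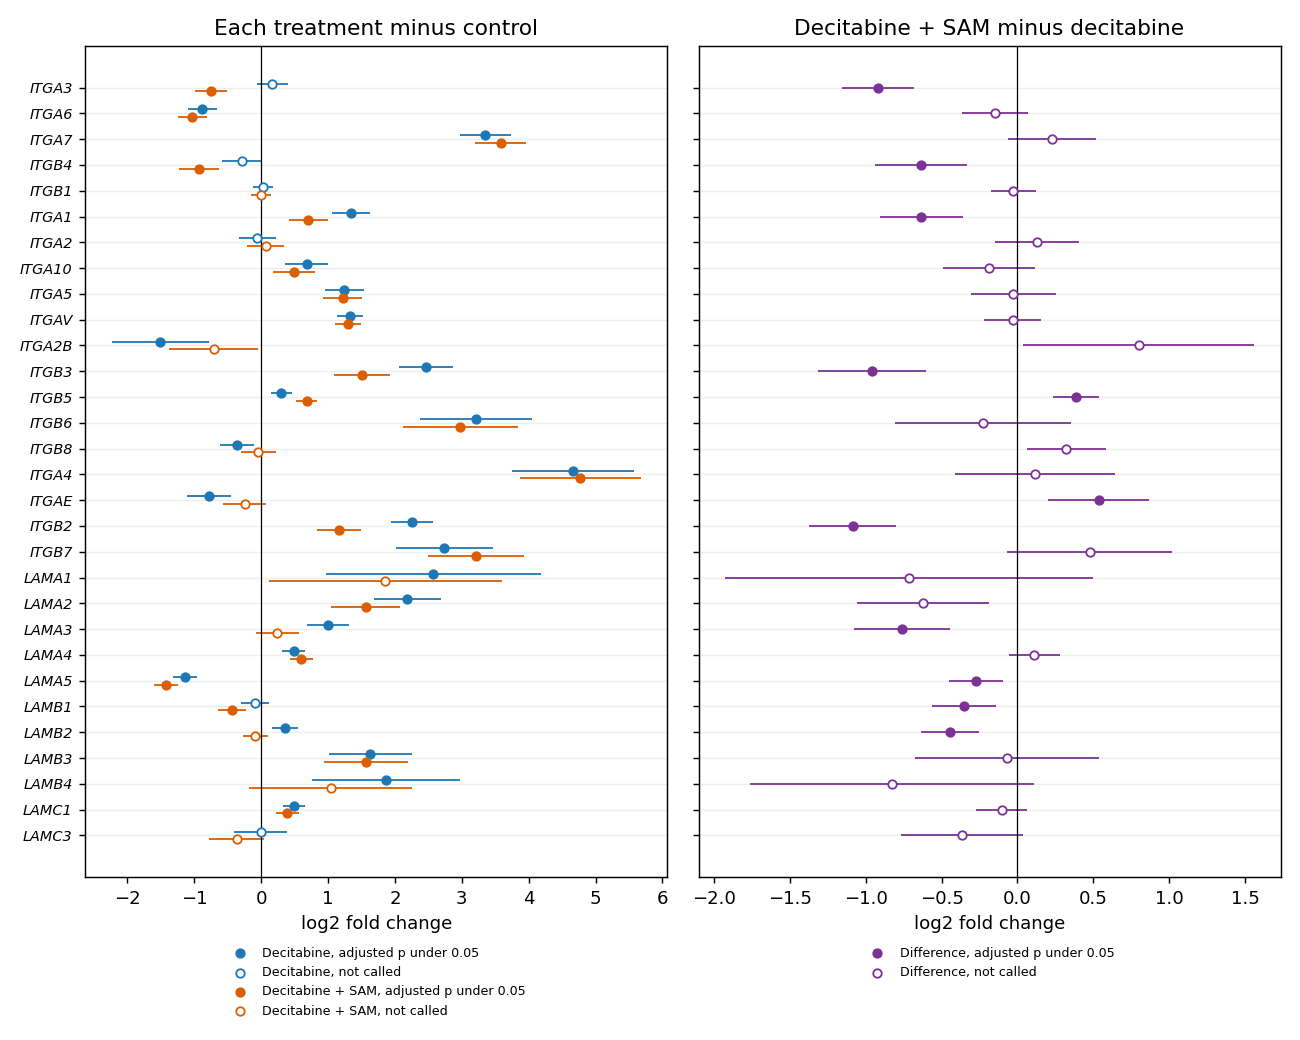
Log2 fold change of 19 integrin subunits and 11 laminin chains for decitabine against control, the combination against control and the combination against decitabine, with 95% confidence intervals. Filled points passed an adjusted p of 0.05: ITGA4 lies farthest to the right for both treatments (4.66 and 4.77), and ITGB5 is the one member filled and above 0 in all 3 comparisons.

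The subunits that receive laminin moved apart. ITGA7, the laminin-binding α subunit best known from muscle, rose about 10-fold, ITGA6, the α6 subunit of epithelial hemidesmosomes, fell with both treatments, and ITGA3 and ITGB4 were lower in the combination than in control cells and than in decitabine.

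ITGA7 stood at 1.39, 1.80 and 1.83 CPM in the controls, 14.6, 16.5 and 20.3 CPM in decitabine, and 16.9, 21.8 and 21.6 CPM in the combination. Every treated library was far above every control library, and the treated groups overlapped. Its level was 10.2-fold higher in decitabine (log2 change 3.35, SE 0.18, adjusted p = 1.5e-09) and 12.0-fold higher in the combination (3.58, SE 0.18, adjusted p = 7.7e-10), by edgeR. The change between the treatments was 0.23, with a 95% interval from −0.06 to 0.52 and an adjusted p of 0.27. Of 7 markers of muscle, where ITGA7 is best known, MYOD1, MYOG and MYH2 had no counts in any library, CKM went from 0 CPM in the controls to between 0.675 and 0.805 CPM in decitabine and between 1.10 and 1.52 CPM in the combination, DES went from at most 0.150 to at most 0.932 and 1.22 CPM, and the 7 summed to at most 0.25 CPM in the controls, 1.39 to 1.86 CPM in decitabine and 1.58 to 2.79 CPM in the combination.

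ITGA3, the α3 subunit of the main epithelial receptor for laminin-332 and laminin-511, had 423, 474 and 448 CPM in the controls and 488, 531 and 494 CPM with decitabine alone. In the combination it had 229, 247 and 326 CPM, below every other library. The combination was lower than control (log2 change −0.75, SE 0.11, edgeR adjusted p = 4.2e-05) and lower than decitabine (−0.92, SE 0.11, adjusted p = 0.00043). Decitabine alone gave 0.17 with an adjusted p of 0.18, although its 3 libraries lay above the controls, and was called with library size as the only scaling (0.42, adjusted p = 0.0079), with only the 6 libraries compared (0.20, adjusted p = 0.024) and without combination replicate 3 (0.17, adjusted p = 0.042).

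ITGB4, the β4 subunit that links hemidesmosomes to keratin filaments, was lowest in the combination as well. Controls had 308, 290 and 244 CPM, decitabine 276, 230 and 180 CPM, and the combination 149, 140 and 153 CPM. The combination group lay below both other groups, which overlapped each other. Against control its log2 change was −0.93 (SE 0.14, edgeR adjusted p = 9.9e-05). Between the treatments it was −0.64 (SE 0.14, adjusted p = 0.012), and it was past the threshold in 6 of 9 fits that each left out 1 library, but not without decitabine replicate 2 (−0.63, adjusted p = 0.050), combination replicate 1 (−0.65, 0.057) or combination replicate 2 (−0.60, 0.061). Decitabine alone gave −0.29 with an adjusted p of 0.074, and was called with no filter on low counts (−0.33, adjusted p = 0.00023), without control replicate 3 (−0.40, 0.028) and without decitabine replicate 1 (−0.46, 0.0032).

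ITGA6, which pairs with β4 or β1, had 177, 167 and 168 CPM in the controls. Decitabine libraries had 109, 92.6 and 76.1 CPM and combination libraries 85.8, 82.8 and 82.5 CPM, all below the controls. It fell with decitabine (log2 change −0.88, SE 0.10, edgeR adjusted p = 3.1e-06) and with the combination (−1.03, SE 0.10, adjusted p = 7.6e-07). Between the treatments the change was −0.15 (95% interval −0.36 to 0.07, adjusted p = 0.35), and only without decitabine replicate 3, the lowest of its group, was it called (−0.27, adjusted p = 0.035). Its common partner ITGB1, the β1 subunit that pairs with most α subunits, gave no call: it had 1426, 1432 and 1511 CPM in the controls, 1516, 1509 and 1413 CPM in decitabine, and 1406, 1461 and 1490 CPM in the combination. The groups overlapped, with log2 changes of 0.02 (95% interval −0.13 to 0.17), −0.00 (−0.15 to 0.15) and −0.03 (−0.18 to 0.12) in the 3 comparisons, although with library size as the only scaling the changes against control were 0.27 for decitabine (adjusted p = 0.0024) and 0.22 for the combination (adjusted p = 0.0095).

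Per kilobase of the canonical transcript, ITGB1 was the most abundant of all 38 members in every group (390, 396 and 389 CPM per kilobase). The laminin-binding α subunits ITGA3, ITGA6 and ITGA7 summed to 121 ± 4.39 CPM per kilobase in control cells, 123 ± 4.83 under decitabine and 73.9 ± 10.8 under the combination (SD, n = 3). ITGA3 supplied most of that sum in every group (75.5%, 83.7% and 73.6%). The share of ITGA6 went from 24.2% to 12.9% and 19.8%. That of ITGA7 went from 0.333% to 3.38% and 6.62%, so that even after its rise it was the least abundant of the 3.

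**Figure D2:**
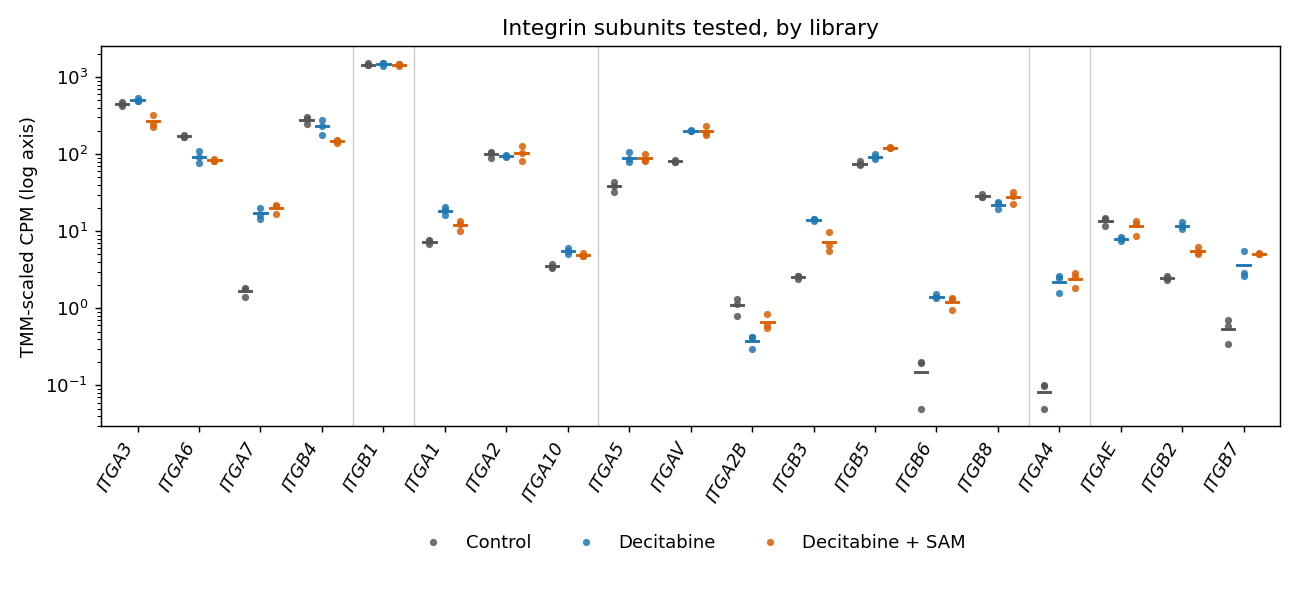
TMM-scaled CPM (log axis) of each tested integrin subunit in the 9 libraries, with 1 point per library and a bar at the mean of each group. ITGA7 goes from under 2 CPM in all controls to over 14 CPM in all treated libraries, while ITGB1 lies between 1406 and 1516 CPM in every library.

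Among the collagen-binding subunits, ITGA1 and ITGA10 rose and ITGA2 did not pass the test. ITGA1, which binds basement membrane collagen, had 7.75, 6.85 and 7.41 CPM in the controls, 20.6, 18.9 and 16.2 CPM in decitabine and 10.01, 12.4 and 13.5 CPM in the combination. The 3 groups were separate, with the combination in between. Its log2 changes were 1.34 (SE 0.13, adjusted p = 6.9e-07) for decitabine, 0.71 (SE 0.14, adjusted p = 0.00034) for the combination and −0.63 (SE 0.13, adjusted p = 0.0060) between the treatments, by edgeR. ITGA10, a subunit known from cartilage, had means of 3.51 ± 0.210, 5.62 ± 0.503 and 4.93 ± 0.293 CPM (SD, n = 3), and rose by 0.68 and 0.49 on the log2 scale (edgeR adjusted p = 0.00091 and 0.0096). ITGA2, the α2 subunit of the epithelial collagen receptor, averaged 99.3 ± 8.76, 95.4 ± 2.99 and 104 ± 22.1 CPM (SD, n = 3). Its changes were −0.06 (95% interval −0.34 to 0.22), which turned to 0.19 with library size as the only scaling, and 0.07 (−0.21 to 0.35) against control, and 0.13 (−0.15 to 0.40) between the treatments.

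Of the 7 tested subunits that bind RGD motifs or pair with αv, 5 rose with both treatments (36.3% and 35.9% of all genes rose): ITGA5, ITGAV, ITGB3, ITGB5 and ITGB6, the last of which entered the test only through the treated libraries. ITGAV, the αv subunit shared by receptors for vitronectin and latent TGF-β, had 79.4, 78.3 and 85.2 CPM in the controls, 201, 206 and 202 CPM in decitabine and 176, 190 and 230 CPM in the combination. No treated library came near the controls, and the treated groups overlapped. The log2 change was 1.33 (SE 0.09, edgeR adjusted p = 1.6e-08) and 1.29 (SE 0.09, adjusted p = 2e-08), and between the treatments −0.03 (95% interval −0.22 to 0.16).

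ITGA5, the α subunit of the classical fibronectin receptor and the first of the sequences printed above, had 32.8, 38.4 and 43.3 CPM in the controls, 79.0, 85.5 and 107 CPM in decitabine and 81.7, 83.2 and 101 CPM in the combination. The treated libraries were all higher and the treated groups overlapped. It rose by 1.24 (SE 0.13, edgeR adjusted p = 6e-06) and 1.22 (SE 0.13, adjusted p = 7.4e-06) on the log2 scale. The change between the treatments was −0.03 (95% interval −0.31 to 0.26).

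Among the β partners of αv, ITGB5 and ITGB3 differed between the treatments, in opposite directions, and ITGB6, ITGB8 and ITGB1 gave no call there. ITGB5, the β5 subunit of a vitronectin receptor, had 71.8, 73.7 and 81.3 CPM in the controls, 87.7, 91.7 and 99.6 CPM in decitabine, and 124, 121 and 119 CPM in the combination. The 3 groups did not overlap and stood in that order. It rose by 0.30 on the log2 scale with decitabine (SE 0.07, edgeR adjusted p = 0.0021) and by 0.68 with the combination (SE 0.07, adjusted p = 1.4e-06). The combination was 1.31-fold above decitabine (log2 change 0.39, SE 0.07, adjusted p = 0.0043), and ITGB5 was the sole member called higher in all 3 comparisons.

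ITGB3, the β3 subunit of the platelet fibrinogen receptor and of αvβ3, went the other way between the treatments. It had 2.38, 2.65 and 2.67 CPM in the controls, 14.5, 14.6 and 13.5 CPM in decitabine, and 5.49, 6.69 and 9.71 CPM in the combination. The combination libraries lay between the other groups without overlap. The log2 changes were 2.46 (SE 0.19, edgeR adjusted p = 5.4e-08) for decitabine, 1.51 (SE 0.19, adjusted p = 9.5e-06) for the combination and −0.96 (SE 0.17, adjusted p = 0.0029) between the treatments. A read-through gene, ENSG00000259753, shares 33.2% of the exon bases of ITGB3 and had from 0.836 to 1.24 CPM in the combination but 0 CPM in decitabine. With both added, the means were 2.67 ± 0.284, 14.2 ± 0.613 and 8.36 ± 2.28 CPM (SD, n = 3). The 5 platelet-lineage markers were each under 1 CPM in every library.

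ITGB6, the epithelial β6 subunit that activates latent TGF-β, was scarce. It had 4, 1 and 4 counts in the controls, 33, 36 and 32 in decitabine, and 22, 31 and 31 in the combination, with the treated libraries all higher. It rose by 3.21 (SE 0.39, edgeR adjusted p = 5.2e-06) and 2.98 (SE 0.40, adjusted p = 1.4e-05) on the log2 scale, and the treatments differed by −0.23 (95% interval −0.81 to 0.35). ITGB8, another αv partner that binds latent TGF-β, averaged 28.5 ± 1.40, 22.1 ± 2.45 and 27.7 ± 4.84 CPM (SD, n = 3). It fell by 0.36 with decitabine (SE 0.12, edgeR adjusted p = 0.015), a call that was lost with library size as the only scaling (−0.12, adjusted p = 0.44), without control replicate 3 (−0.33, adjusted p = 0.050) and without decitabine replicate 1 (−0.28, 0.065). For the combination the change was −0.04 (95% interval −0.30 to 0.22), which turned to 0.18 with library size as the only scaling. ITGA2B, the platelet αIIb subunit, was low at 1.09 ± 0.273, 0.381 ± 0.0738 and 0.666 ± 0.149 CPM (SD, n = 3). It fell with decitabine (log2 change −1.51, edgeR adjusted p = 0.0011). For the combination its change was −0.71 (adjusted p = 0.057), and it was called without control replicate 2 (−0.90, adjusted p = 0.033) or combination replicate 2 (−0.91, 0.046).

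Per kilobase, ITGB5 made up 82.4%, 80.2% and 85.7% of the summed β3, β5, β6 and β8 transcripts in control, decitabine and combination. The share of ITGB3 was 2.09%, 9.17% and 3.84%, and that of ITGB8 was 15.4%, 9.44% and 9.66%. The sum itself was 20.7 ± 1.30, 26.1 ± 1.49 and 31.9 ± 0.280 CPM per kilobase (SD, n = 3).

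Subunits usually found on leukocytes were low in the controls and several rose. ITGB2, the β2 subunit of leukocyte integrins, had 2.48, 2.30 and 2.67 CPM in the controls, 11.8, 13.1 and 10.7 CPM in decitabine and 5.40, 5.15 and 6.18 CPM in the combination. The groups did not overlap. It rose by 2.25 (SE 0.15, edgeR adjusted p = 1.2e-08) with decitabine and by 1.17 (SE 0.15, adjusted p = 1.1e-05) with the combination, and was lower in the combination than in decitabine (−1.09, SE 0.13, adjusted p = 0.00041). None of its 4 α partners reached the test. Of 8 leukocyte markers, 4 were under 1 CPM in every library, PTPRC, the CD45 gene, went from at most 0.100 CPM in controls to at most 1.27 CPM, and the summed level of all 8 was 25.3 to 29.1 CPM in the controls, 22.7 to 24.6 CPM in decitabine and 22.7 to 26.9 CPM in the combination.

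ITGB7, which pairs with α4 or αE in gut-homing lymphocytes, had 0.348, 0.700 and 0.592 CPM in the controls, 2.83, 2.62 and 5.59 CPM in decitabine and 5.18, 5.15 and 5.03 CPM in the combination. Treated libraries were all higher, with decitabine replicate 3 apart from its group. It rose by 2.74 (SE 0.34, edgeR adjusted p = 6.9e-06) and 3.21 (SE 0.33, adjusted p = 1.2e-06). Between the treatments it gave 0.48 (95% interval −0.07 to 1.02, adjusted p = 0.22), and 0.91 without decitabine replicate 3 (adjusted p = 0.011). ZNF740, on the opposite strand, shares 42.3% of its exon bases and fell (log2 changes −0.60 and −0.51).

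ITGA4, the α4 subunit that binds VCAM1 and fibronectin, had 2, 2 and 1 counts in the controls, 59, 62 and 37 in decitabine and 58, 42 and 67 in the combination. Its log2 changes were 4.66 (SE 0.43, edgeR adjusted p = 3e-07) and 4.77 (SE 0.42, adjusted p = 2.3e-07), the largest of the 31 tested members in both comparisons and resting on 5 control counts in all. The treatments overlapped. CERKL, on the opposite strand, shares 26.4% of its exon bases, and its changes were 0.35 (adjusted p = 0.40) and 0.09 (adjusted p = 0.84).

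ITGAE, the αE subunit that binds E-cadherin, had 14.6, 14.9 and 11.7 CPM in the controls, 7.48, 8.01 and 8.43 CPM in decitabine and 12.3, 13.6 and 8.77 CPM in the combination. Decitabine libraries lay below both other groups, which overlapped. It fell with decitabine (log2 change −0.78, SE 0.15, edgeR adjusted p = 0.00042), and the combination differed from control by −0.25 (95% interval −0.57 to 0.07, adjusted p = 0.16). The combination exceeded decitabine by 0.53 (SE 0.15, adjusted p = 0.032), but not past the threshold with voom and limma (0.51, adjusted p = 0.057), with only the 6 libraries compared (0.53, 0.054), or without decitabine replicate 1 (0.49, 0.093), decitabine replicate 2 (0.54, 0.10), combination replicate 1 (0.48, 0.11) or combination replicate 2 (0.40, 0.17). HASPIN, which lies within ITGAE on the opposite strand and shares 6.47% of its exon bases, changed by −0.59, −0.13 and 0.46. CDH1, the gene of E-cadherin, went from at most 2.001 CPM in the controls to between 13.7 and 14.9 CPM in decitabine and between 15.2 and 18.0 CPM in the combination.

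LAMA3 and LAMB3, chains of laminin-332, rose with decitabine, LAMA5 of laminin-511 fell, its partner LAMB1 gave no call and its partner LAMC1 rose. With the combination LAMB3 and LAMC1 were above control, LAMA5 and LAMB1 below, and LAMA3 gave no call.

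LAMA5, the α5 chain of laminin-511 and the CG-rich sequence printed above, had 549, 606 and 527 CPM in the controls, 277, 253 and 230 CPM in decitabine and 199, 218 and 213 CPM in the combination. The groups did not overlap. It was 2.21-fold lower with decitabine (log2 change −1.15, SE 0.08, edgeR adjusted p = 3.4e-08) and 2.67-fold lower with the combination (−1.42, SE 0.08, adjusted p = 4.9e-09). The difference between the treatments was −0.27 (SE 0.08, adjusted p = 0.040). It was lost with only the 6 libraries compared (−0.28, adjusted p = 0.056), and without control replicate 2 (−0.27, 0.053), decitabine replicate 1 (−0.20, 0.15), decitabine replicate 2 (−0.27, 0.12), combination replicate 1 (−0.24, 0.12) or combination replicate 2 (−0.30, 0.10).

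LAMA3, the α3 chain of laminin-332, had 64.8, 75.3 and 96.5 CPM in the controls, 164, 166 and 144 CPM in decitabine, and 83.2, 88.1 and 108 CPM in the combination. Decitabine libraries stood above all others, and the combination overlapped the controls. It was 2.002-fold higher with decitabine (log2 change 1.002, SE 0.14, edgeR adjusted p = 0.0001) and lower in the combination than in decitabine (−0.76, SE 0.14, adjusted p = 0.0074). Against control the combination gave 0.24 (adjusted p = 0.16), and was called without control replicate 3, the highest control (0.40, adjusted p = 0.0095), with library size as the only scaling (0.47, 0.020) and with no filter on low counts (0.21, 0.037).

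LAMA4, the α4 chain of mesenchymal and vascular basement membranes, averaged 43.0 ± 2.46, 60.4 ± 1.27 and 65.2 ± 5.93 CPM (SD, n = 3), and rose by 0.49 and 0.60 on the log2 scale (edgeR adjusted p = 7.9e-05 and 1.3e-05). LAMA2, the α2 chain of muscle laminin-211, averaged 1.23 ± 0.262, 5.59 ± 1.31 and 3.63 ± 0.499 CPM (SD, n = 3). It rose by 2.19 and 1.56 (edgeR adjusted p = 1.4e-06 and 4.9e-05), and the combination differed from decitabine by −0.62 (SE 0.20, adjusted p = 0.052). That value crossed the threshold in several other fits, among them DESeq2 (−0.63, adjusted p = 0.048) and those without control replicate 3 (−0.62, 0.050) or decitabine replicate 3 (−0.78, 0.020). LAMA1, the embryonic α1 chain, had 3, 1 and 2 counts in the controls, 6, 16 and 22 in decitabine and 2, 8 and 16 in the combination. It rose with decitabine (2.58, SE 0.75, edgeR adjusted p = 0.0072). For the combination it gave 1.86 (adjusted p = 0.057), and was called with library size as the only scaling (2.07, adjusted p = 0.038), with no filter on low counts (1.83, 0.015), without decitabine replicate 1 (1.85, 0.038) or combination replicate 1 (2.31, 0.012).

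LAMB3, the β3 chain of laminin-332, had 115, 138 and 134 CPM in the controls, 277, 403 and 523 CPM in decitabine and 300, 360 and 486 CPM in the combination. All treated libraries were above the controls, and the spread within each treatment was wide. It rose 3.10-fold (log2 change 1.63, SE 0.27, edgeR adjusted p = 0.00098) and 2.96-fold (1.57, SE 0.27, adjusted p = 0.0013), and the treatments differed by −0.07 (95% interval −0.67 to 0.54).

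LAMB1, the β1 chain of laminin-511 and laminin-111, had 497, 490 and 496 CPM in the controls, 529, 486 and 380 CPM in decitabine and 376, 360 and 357 CPM in the combination. Combination libraries lay below all others, with decitabine replicate 3 close to them. It was lower in the combination than in control (log2 change −0.44, SE 0.10, edgeR adjusted p = 0.0012) and than in decitabine (−0.35, SE 0.10, adjusted p = 0.028). The call between the treatments was lost with only the 6 libraries compared (−0.35, adjusted p = 0.061), and without decitabine replicate 1 (−0.25, 0.11), decitabine replicate 2 (−0.32, 0.12), combination replicate 1 (−0.38, 0.058) or combination replicate 2 (−0.34, 0.11). Decitabine against control gave −0.09 (95% interval −0.30 to 0.12), which turned to 0.16 with library size as the only scaling and to 0.04 without decitabine replicate 3.

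LAMB2, the β2 chain of neuromuscular and glomerular laminins, averaged 132 ± 11.8, 170 ± 15.02 and 125 ± 10.5 CPM (SD, n = 3). It rose by 0.36 with decitabine (SE 0.09, edgeR adjusted p = 0.0025) and was lower in the combination than in decitabine (−0.45, SE 0.09, adjusted p = 0.0060). Against control the combination gave −0.09 (95% interval −0.28 to 0.11), and 0.14 with library size as the only scaling. LAMC1, the γ1 chain of most laminins, averaged 86.7 ± 4.51, 122 ± 2.29 and 114 ± 11.9 CPM (SD, n = 3), and rose by 0.49 and 0.39 (edgeR adjusted p = 6.6e-05 and 0.00053). LAMB4, a β chain of little known function, was low with 10, 44 and 24 counts per group, and rose with decitabine (log2 change 1.87, SE 0.52, edgeR adjusted p = 0.0050). LAMC3, a γ chain of low expression, averaged 4.12 ± 0.675, 4.11 ± 0.485 and 3.19 ± 0.525 CPM (SD, n = 3), with no call in the 3 comparisons, and its decitabine change of −0.00 was 0.24 with library size as the only scaling.

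**Figure D3:**
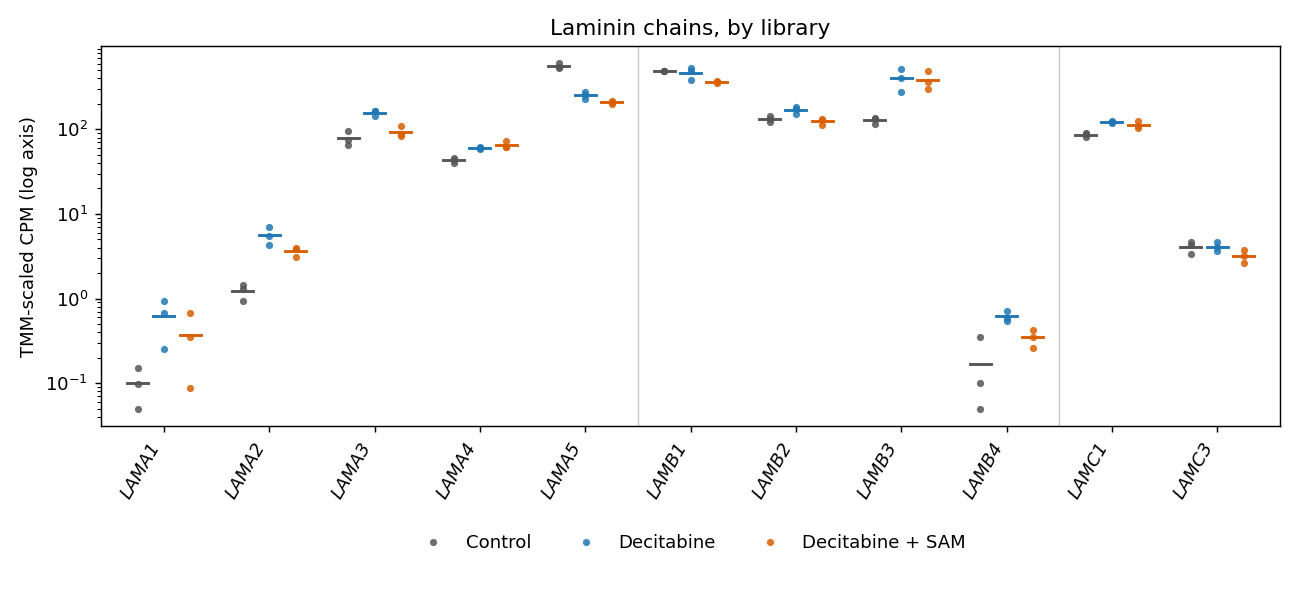
TMM-scaled CPM (log axis) of 11 laminin chains in the 9 libraries, with 1 point per library and a bar at the mean of each group. LAMA5 falls from at least 527 CPM in the controls to at most 277 CPM in every treated library, and LAMB3 lies at 277 CPM or more in every treated library against at most 138 CPM in the controls.

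The make-up of the laminin transcripts followed these changes, as shares of CPM per kilobase. LAMA5 supplied 78.4% ± 2.31 of the α chain sum in control cells, 48.2% ± 1.32 under decitabine and 50.3% ± 2.56 under the combination (SD, n = 3). LAMA3 went from 11.9% ± 2.63 to 32.2% ± 1.13 and 23.9% ± 1.86, and LAMA4 from 9.53% ± 0.734 to 18.2% ± 1.40 and 24.6% ± 1.09. Thus LAMA5 was the leading α chain in every group, ahead of LAMA3 with decitabine, and LAMA3 and LAMA4 were close together in the combination.

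Among β chains LAMB1 led in the controls with 61.2% ± 1.85, against 22.5% ± 1.69 for LAMB3. With decitabine they stood at 39.3% ± 9.30 and 46.5% ± 11.1, within the spread of each other, and with the combination at 36.0% ± 5.44 and 51.9% ± 6.01 (SD, n = 3). Taken over the union of all exons, a second measure of length, LAMB1 and LAMB3 stood at 36.1% and 37.7% in the controls, so the order of these chains depends on the length used, while the fall in the LAMB1 share and the rise in that of LAMB3 appear on both. Summed levels of the α chains were 62.6 ± 3.18, 46.0 ± 3.19 and 36.6 ± 2.45 CPM per kilobase and those of the β chains 143 ± 3.31, 212 ± 16.9 and 182 ± 23.8 (SD, n = 3).

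**Figure D4:**
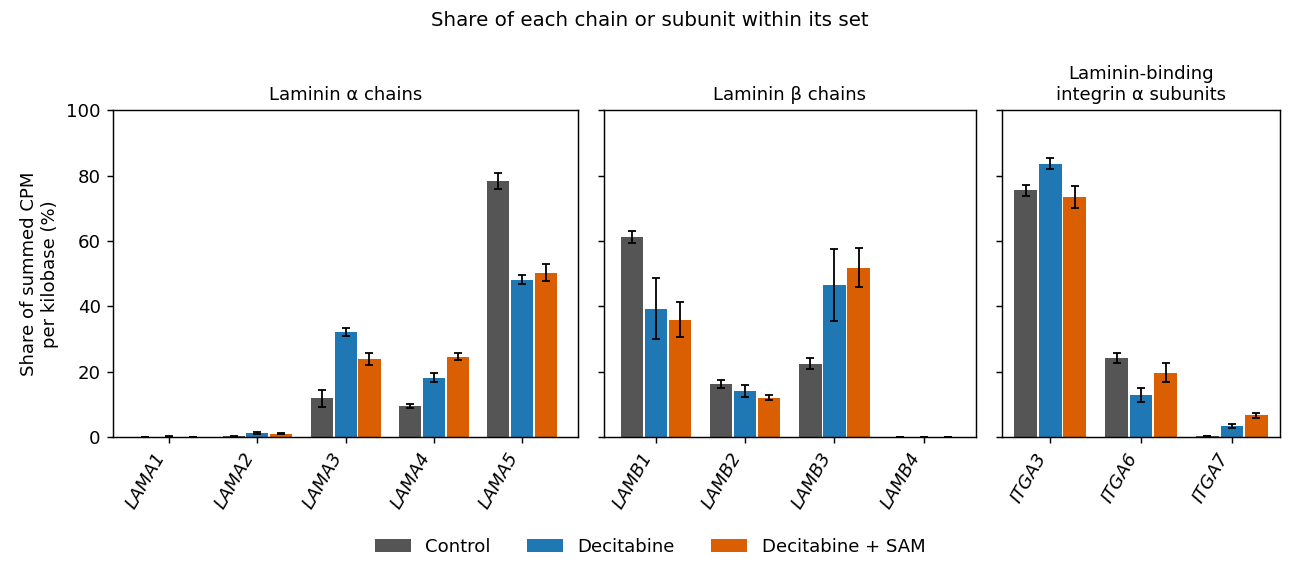
Share (%) of each chain or subunit in the summed CPM per kilobase of its set, for laminin α and β chains and for laminin-binding integrin α subunits, as mean bars with SD over 3 libraries for each condition. LAMA5 drops from 78.4% of the α chains in the controls to 48.2% with decitabine, and LAMB3 goes from 22.5% to 46.5% of the β chains.

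Of 32 genes of focal adhesions and integrin activation, 31 were tested. With decitabine 13 rose and 12 fell (36.3% and 32.5% of all genes), with the combination 10 rose and 13 fell (35.9% and 31.3%), and between the treatments 7 were lower (8.02%), with medians of −0.03, −0.06 and −0.07. Without decitabine replicate 2 the 7 became 1, without combination replicate 2 they became 2, and without decitabine replicate 1 or combination replicate 1 they became 4. FERMT3, the kindlin of blood cells that activates β subunits, rose from 1.26 ± 0.262 to 10.1 ± 0.791 and 10.1 ± 0.240 CPM (SD, n = 3; log2 changes 2.99 and 2.999, edgeR adjusted p = 2e-09 for both). PTK2B, a kinase related to focal adhesion kinase, rose by 1.29 and 0.98, whereas PTK2, the focal adhesion kinase itself, fell with decitabine (log2 change −0.78) from 266 ± 15.04 to 155 ± 16.2 CPM (adjusted p = 1.1e-06). In the combination PTK2 averaged 121 ± 3.46 CPM.

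ZYX, the zyxin of actin-bound adhesions, fell from 754 ± 91.3 to 315 ± 22.3 and 301 ± 26.7 CPM (SD, n = 3; log2 changes −1.26 and −1.32, edgeR adjusted p = 5.6e-08 and 3.6e-08). RSU1, a member of the complex around integrin-linked kinase, fell (log2 changes −0.89 and −1.14). Between the treatments LIMS2, another member of that complex, changed by −0.52 (adjusted p = 0.015), and the tensins TNS1 and TNS2, which bind β subunit tails, by −1.04 (adjusted p = 0.016) and −0.56 (adjusted p = 0.0074). TNS4, a tensin of epithelial tumours, rose with the combination by 0.84 against control (adjusted p = 7e-06). Its means were 111 ± 10.2 CPM in the controls, 201.7 ± 26.5 in decitabine and 199.5 ± 19.3 in the combination (SD, n = 3), so both treatments lay alike above control.

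Of 25 basement membrane and hemidesmosome partners of laminins, 21 were tested, with 10 up and 7 down with decitabine (36.3% and 32.5% of all genes), 9 up and 8 down with the combination (35.9% and 31.3%), and 3 lower between the treatments (8.02%). Their medians were −0.01, −0.06 and −0.20. The 3 became 1 without combination replicate 2, 5 without decitabine replicate 3, 7 without control replicate 1 and 8 without combination replicate 3. NID2, a nidogen that bridges laminin and collagen IV, rose from 9.61 ± 2.31 to 86.1 ± 11.4 and 62.1 ± 11.7 CPM (SD, n = 3; log2 changes 3.16 and 2.69, edgeR adjusted p = 5.5e-07 and 1.7e-06). SPARC, a collagen-binding matrix protein, rose by 2.05 and 1.59, and SDC4, a syndecan co-receptor, by 1.03 and 1.004. SDC1, the epithelial syndecan, fell from 429 ± 47.8 to 113 ± 12.8 and 136 ± 21.3 CPM (log2 changes −1.92 and −1.65, adjusted p = 4.9e-08 and 1.7e-07). COL17A1, the hemidesmosome collagen that meets α6β4, fell (log2 changes −1.20 and −1.76). COL18A1, a basement membrane collagen, fell with decitabine (−0.996), and HSPG2, the perlecan of the basement membrane, fell with the combination (−1.30). In control, decitabine and combination, COL18A1 averaged 78.0 ± 3.24, 39.1 ± 3.43 and 34.1 ± 3.01 CPM, and HSPG2 160 ± 21.0, 93.8 ± 18.5 and 65.1 ± 6.61 CPM (SD, n = 3). The 3 genes lower in the combination than in decitabine were AGRN, the agrin that binds laminin γ1 (−0.58, adjusted p = 0.0015), HSPG2 (−0.53, adjusted p = 0.037) and COL4A5, a collagen IV chain (−0.35, adjusted p = 0.0082).

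Of 30 other integrin ligands, 24 were tested, and 19 rose and 4 fell with each treatment (36.3% and 32.5% of all genes with decitabine, 35.9% and 31.3% with the combination), with medians of 1.53 and 1.27. VTN, the vitronectin bound by αvβ3 and αvβ5, rose from 0.0829 ± 0.0763 to 16.4 ± 1.82 and 9.23 ± 1.30 CPM (SD, n = 3; log2 changes 7.54 and 6.71, edgeR adjusted p = 1.4e-10 and 7.3e-10), and was lower in the combination than in decitabine (−0.83, adjusted p = 0.0044). ICAM2, a ligand of β2 integrins, rose from 0.0823 ± 0.142 to 13.2 ± 1.23 and 8.61 ± 0.733 CPM, and COL1A2, a collagen I chain, from 0.614 ± 0.322 to 45.7 ± 8.04 and 33.2 ± 6.19 CPM. VTN and ICAM2 entered the test only through the treated libraries, and both are among the 19 that rose. The log2 changes of both rest on few control counts, and no count of ligands without such genes was made. TNC, the tenascin bound by α9 and αv, EDIL3, an RGD protein, and ADAM15, an RGD-bearing protease, fell with both treatments, with log2 changes of −1.18 and −1.55, −0.94 and −1.15, and −0.54 and −0.87 in that order. Between the treatments 2 were higher (7.67% of all genes) and 7 lower (8.02%). The 2 were ICAM3, a ligand of leukocyte integrins (0.40, adjusted p = 0.0074), and TGFB1, whose latent form holds an RGD motif (0.27, adjusted p = 0.014). Of the 7 that were lower, CCN2 and CCN1, matrix proteins bound by αv, changed by −1.05 and −0.76 (adjusted p = 0.015 and 0.041), and the 7 became 1 without combination replicate 2, 2 without decitabine replicate 2, and 3 without decitabine replicate 1 or combination replicate 1.

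The libraries carried the 5 epithelial markers at 875 to 956 CPM in sum in the controls, 869 to 921 CPM in decitabine and 727 to 867 CPM in the combination. That sum hides opposite moves. KRT8 (107 to 127 CPM in the controls, 254 to 274 in decitabine, 201 to 217 in the combination) and CDH1 were higher in all treated libraries. KRT19 (336 to 381, 233 to 253 and 198 to 260 CPM) and KRT18 were lower in all of them, and the EPCAM ranges overlapped. The 6 fibroblast markers summed to 6.02 to 7.70 CPM in the controls, 59.7 to 84.1 CPM in decitabine and 58.6 to 70.1 CPM in the combination, chiefly COL1A1. LUM went from at most 0.150 CPM in the controls to between 5.09 and 7.20 CPM in the treated libraries, PDGFRA from at most 1.601 to between 5.27 and 11.4 CPM, and DCN from at most 0.100 to at most 1.62 CPM. The ranges of PDGFRB overlapped (0.346 to 0.596 CPM in the controls, 0.295 to 0.507 in decitabine, 0.426 to 0.522 in the combination). Those of COL3A1 overlapped as well (1.43 to 1.74, 1.27 to 4.36 and 1.06 to 4.53 CPM). The 5 endothelial markers, chiefly PECAM1 and KDR, summed to 26.2 to 28.6, 43.2 to 62.5 and 52.2 to 60.7 CPM, with CDH5 at most 0.426 CPM. Most of that rise was PECAM1, with 9.78 to 10.3 CPM in the controls, 29.6 to 40.9 in decitabine and 35.65 to 43.1 in the combination. KDR did not share it (15.7 to 17.5, 10.5 to 19.2 and 14.35 to 15.5 CPM). The part of other cell types in the changes of ITGA1, ITGA4, ITGB3, LAMA2 and LAMA4 was not tested.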

How the data were processed

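PC-3 RNA was sequenced on the BGISeq-500 in 9 libraries, and groups and replicate numbers came from the sample labels. According to the labels and the methods of the study, the authors trimmed reads with Trim Galore (0.6.4), quantified them with kallisto (0.4.6 in the submitters' processing notes) against GRCh38 and deposited estimated counts per Ensembl gene, with decimals and not normalized. The strand setting of the quantification is not given in the sources used here, so several genes that overlap a member on the other strand are named beside it. Not all are named there: among others, ITGA2-AS1 shares 7.47% of the exon bases of ITGA1 and ENSG00000265069 shares 10.35% of those of LAMA1. The 9 deposited tables of log2 CPM were not used.

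Estimated counts were rounded to whole numbers. Of 60617 identifiers, 60357 matched GENCODE 44 and 22552 had no counts in any library. The test was edgeR (4.0.16) in R (4.3.3): filterByExpr, TMM, a quasi-likelihood fit with robust dispersion over all 9 libraries with 1 mean per group, and Benjamini-Hochberg adjustment over 18532 genes at 0.05. The study's voom and limma (3.58.1) and DESeq2 (1.42.0) were alternatives, with those named in the closing section. Replicates differed beyond sampling noise (chi-square per degree of freedom from 5.86 to 23.5), and none was a copy. Levels between genes were compared as CPM per kilobase of the GENCODE canonical transcript, and as an alternative of the union of exons. The statistical steps were tested on simulated data.

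The members, role groups, marker lists and 3 lists of related genes were chosen with earlier results of these data known. Every member was fitted and counted, and the values of 1 are not reported here. Full statistics were given for members with a mean of at least 5 CPM in a group or called between the treatments, and of each related list up to 3 genes per direction and comparison with the largest change among those averaging 50 or more counts in some group. Shares, sums and promoter letters are descriptions without a test.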

Additional observations from a re-analysis of the deposited data

How the results depend on the processing

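Over the fits without 1 of the 9 libraries, 20 to 21 members were higher and 5 to 5 lower with decitabine, 15 to 17 higher and 5 to 6 lower with the combination, and 1 to 3 higher and 6 to 11 lower in the combination than in decitabine. DESeq2, DESeq2 size factors, library size alone, voom and limma, no filter on low counts and a mean of at least 10 counts kept the 5 larger counts within 1.5 times. Members higher between the treatments numbered 1 with voom and limma and 1 with only the 6 libraries compared. Requiring a change over 1 (log2) left 15 higher and 2 lower with decitabine, 10 and 2 with the combination, and 0 and 1 between the treatments. The 15 and the 10 include members that could enter the test only through the treated libraries.

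Same-numbered libraries correlated in their deviations from −0.0165 to 0.233, not all over 0.1, and the labels name no shared culture or day, so the libraries were taken to share only a number, although 7 of 9 correlated best with their own number, a hint from the data of a pairing. With the replicate number as a block, 20 members were higher and 6 lower with decitabine, 17 and 5 with the combination, and 3 and 11 between the treatments. The calls gained with the block included ITGB4 for decitabine (−0.30, adjusted p = 0.018), LAMA1 for the combination (1.79, 0.025), and ITGB8 (0.32, 0.027) and LAMA2 (−0.61, 0.017) between the treatments.

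Directions that turned belonged to uncalled values, apart from ITGB1 with library size alone. With library size alone ITGA2 gave 0.19, LAMB1 0.16 and LAMC3 0.24 for decitabine, and ITGB1 0.22, ITGB8 0.18 and LAMB2 0.14 for the combination. For decitabine ITGB1 gave −0.02 with no filter, and LAMC3 0.02 with DESeq2 size factors, DESeq2 and only the 6 libraries compared, 0.00 with voom and limma, and 0.01 with a mean of at least 10 counts and with the replicate block. For the combination ITGB1 gave 0.01 with DESeq2 size factors, DESeq2 and a mean of at least 10 counts, and 0.02 with only the 6 libraries compared. Without 1 library the ranges of the values that turned were, for decitabine, ITGB1 from −0.00 to 0.05, LAMB1 from −0.20 to 0.04 and LAMC3 from −0.14 to 0.09, for the combination, ITGA2 from −0.10 to 0.20, ITGB1 from −0.03 to 0.01 and ITGB8 from −0.16 to 0.08, and between the treatments, ITGA2 from −0.04 to 0.27, ITGA4 from −0.08 to 0.27, ITGA5 from −0.13 to 0.11, ITGAV from −0.15 to 0.05 and LAMB3 from −0.28 to 0.17. The cause was not tested for any of these.

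Leaving out 1 library changed the call of 3 members for decitabine, 6 for the combination and 9 between the treatments, where 16 of 279 fitted values lost a call and 6 gained one. Beside those given above, LAMB4 (2.13, adjusted p = 0.013, without control replicate 2) and LAMC3 (−0.50, 0.040, without control replicate 1) were called for the combination, and ITGB8 (0.45, 0.025, without combination replicate 1, and 0.33, 0.016, with no filter) between the treatments. For the 3 lists of related genes, the counts lower between the treatments ranged without 1 library from 1 to 8 where 7 focal adhesion genes were called, from 1 to 8 where 3 basement membrane genes were, and from 1 to 8 where 7 other ligands were. The basement membrane count was 6 with DESeq2, 8 with no filter, 7 with the replicate block and 5 with voom and limma or with only the 6 libraries compared, and that of other ligands 11 with no filter. With library size alone 7 focal adhesion genes, in place of 12, were lower with decitabine. A change over 1 was reached with decitabine by 4 higher and 1 lower focal adhesion genes, 5 and 2 basement membrane genes and 1 lower ligand, and with the combination by 2 and 4, 5 and 4, and 2. With 3 libraries per group, members such as ITGA4, ITGB6, LAMA1 and LAMB4, with at most 10 counts in the 3 controls together, have wide intervals, and the 7 untested members had too few counts to test at this depth.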

Other observations

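Several genes that lie across a member, most of them on the opposite strand, were more changed than the member itself. LAMA5-AS1, an antisense RNA that shares 0.826% of the exon bases of LAMA5, went from 0.0497 ± 0.000332 CPM in the controls to 1.65 ± 0.276 CPM in decitabine and 1.56 ± 0.344 CPM in the combination (SD, n = 3; log2 changes 4.90 and 4.82, edgeR adjusted p = 2.6e-07 and 3.5e-07), where LAMA5 gave −1.15 and −1.42. In control replicate 3, 1 count equals 0.0494 CPM, so the control mean and SD of LAMA5-AS1 rest on very few counts. This antisense RNA entered the test only through the treated libraries. ADRM1, a proteasome ubiquitin receptor that also overlaps LAMA5, fell less than LAMA5 did (−0.44 and −0.26, edgeR adjusted p = 8.3e-05 and 0.0053). ITGB1-DT, a divergent transcript at the start of ITGB1, rose from 3.83 ± 1.43 to 10.1 ± 3.41 and 9.09 ± 2.005 CPM (log2 changes 1.40 and 1.25, adjusted p = 0.0026 and 0.0056), where ITGB1 gave 0.02 and −0.00. ITGB8-AS1 rose with decitabine by 1.22 (adjusted p = 0.0053) where ITGB8 fell by 0.36.

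Some other pairs moved the same way. ITGB2-AS1 rose with ITGB2, by 3.15 and 2.44 on the log2 scale (edgeR adjusted p = 3.5e-06 and 7.3e-05), and between the treatments gave −0.71 (adjusted p = 0.090). With 0.199 ± 0.101 CPM in the controls (SD, n = 3), ITGB2-AS1 too entered the test only through the treated libraries. METTL7B, a methyltransferase-like gene of lipid droplets next to ITGA7, rose by 2.77 and 3.09 (adjusted p = 2.2e-07 and 7.3e-08), and the overlapping ENSG00000258311 rose by 2.35 and 2.28, while they share only 0.485% and 0.0881% of the exon bases of ITGA7. BLOC1S1, a lysosome-biogenesis gene at the same place, was not called, with changes of −0.19 (edgeR adjusted p = 0.12) and 0.02 (adjusted p = 0.90). DLD, a subunit of mitochondrial dehydrogenases that overlaps LAMB1, fell (−0.75 and −0.77, edgeR adjusted p = 4.2e-07 and 3.1e-07). There LAMB1 gave −0.09, which was not called, and −0.44.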
